A study of Mus musculus with 6 samples.

Results

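The 37 genes described here are Srebf1, the regulators that control its protein product, and the enzymes of fatty acid and sterol synthesis that SREBP factors are known to switch on. They were picked by name and role, with earlier results of these data known, and no array value enters the rule. They are 7 regulators, 15 fatty acid genes and 15 sterol genes, of 18193 genes measured in the series. All 37 had at least 1 probe set that the platform annotation gives to that gene symbol alone, 86 probe sets in all, and each gene is reported by whichever of its probe sets was brightest on average. The series holds 1 Affymetrix array per mouse of hippocampus RNA from 3 mice of genotype Dp(11)17/+ and 3 of genotype +/+. All 6 mice were labelled as males of the strain C57BL/6-Tyr c-Brd aged 11 to 14 weeks, and no treatment was named. The duplication mice have an additional copy of part of chromosome 11, and the series title calls the line a model of Potocki-Lupski syndrome, a developmental disorder of people with a duplication of the matching human segment. Of the 37 genes, 4 lie on chromosome 11, namely Srebf1, Acaca, Acly and Fasn, and of these Srebf1 alone lies within the segment, which was taken as the genes from Cops3 to Rnf112 in the gene table. The comparison therefore sets a gene present in 3 copies in the duplication mice and 2 in the wild-type mice against 36 genes whose copy number the duplication leaves unchanged.

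SREBP proteins are made as precursors anchored in the membrane of the endoplasmic reticulum, where Scap, their sterol-sensing escort, is held back by the Insig proteins while sterols are plentiful. When sterols run low, Scap carries the precursor to the Golgi, and the proteases encoded by Mbtps1 and Mbtps2 cut it in turn to free the part that enters the nucleus and binds sterol regulatory elements. The forms made from Srebf1 are best known for driving fatty acid genes, and that made from Srebf2 for driving sterol genes. In the brain, cholesterol is made locally, much of it by glia, because lipoproteins of the blood do not cross the blood-brain barrier. Arrays measure RNA only, so neither the cutting of the precursor nor lipid content was measured.

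The mice of the duplication group differed from each other in ways their labels do not give, and results are given below also without single mice. The log2 value of Xist, the RNA that coats the inactive X in females, was 9.13 in duplication replicate 1, while the other 5 mice lay between 3.06 and 3.69. The Y-linked gene Eif2s3y was at 2.48 there and between 5.41 and 6.01 elsewhere, and Kdm5d at 2.47 and between 4.70 and 5.06, so this mouse goes against its male label. Marker lists of hippocampal fields set all 3 duplication mice apart from the wild-type mice, replicates 1 and 3 below their range and replicate 2 above it. Of the lists of neighbouring regions, striatal markers were high in replicates 1 and 3, and thalamus and habenula markers in replicate 3. As means over each list minus the wild-type mean, CA1 pyramidal markers lay at -0.73, 0.41 and -1.67 in duplication replicates 1, 2 and 3 (0 of 7 genes higher by the group means; wild-type mice -0.12 to 0.20), and dentate granule markers at -0.84, 0.85 and -1.61 (3 of 8 higher; wild type -0.21 to 0.27). Striatal markers lay at 1.24, -0.19 and 2.17 (8 of 8 higher; wild type -0.22 to 0.43), and thalamus and habenula markers at 0.13, -0.05 and 2.60 (10 of 10 higher; wild type -0.20 to 0.11). Tcf7l2, a defining thalamic marker, was at 7.01 in duplication replicate 3 and between 3.08 and 3.88 in the other mice. The defining hippocampal markers Fibcd1 of CA1 and Prox1 of the dentate gyrus were at 4.24 and 3.88 in duplication replicate 3, below the wild-type ranges of 6.35 to 7.39 and 4.53 to 5.03, and Prox1 was at 5.99 in duplication replicate 2, above that range. No duplication mouse thus matches the wild-type mice in all marker lists.

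Glial and vascular lists differed by less. Astrocyte markers lay at 0.19, 0.12 and 0.08 in duplication replicates 1, 2 and 3 (11 of 12 genes higher; wild type -0.03 to 0.04), oligodendrocyte precursor markers at 0.29, 0.18 and 0.44 (8 of 8; wild type -0.10 to 0.06) and endothelial markers at 0.27, 0.07 and 0.30 (7 of 8; wild type -0.05 to 0.05). Oligodendrocyte markers, whose cells make the sterol-rich myelin sheath, lay at -0.07, 0.17 and 0.56 (10 of 11; wild type -0.21 to 0.37), so the groups overlapped. No defining glial or vascular marker was near the bottom of the scale: Aqp4 was between 8.55 and 8.78, Mbp between 12.19 and 12.68, Pdgfra between 7.57 and 8.51 and Cldn5 between 7.06 and 7.94 over the 6 mice. Their log2 fold changes were 0.02 for Aqp4, 0.15 for Mbp, 0.34 for Pdgfra and -0.08 for Cldn5, each with overlapping groups. Aqp4 was thus nearly level, and Cldn5 went the other way from its list. In pieces of tissue, fewer cells of a type and less RNA per cell cannot be told apart. Duplication and wild-type mice carry different individual numbers and no litter is named, so litter or cohort and genotype cannot be told apart.

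Promoter sequences were examined because most of these genes are textbook targets of 1 family of factors. RefSeq start sites of the assembly GRCm38.p6 were given for 30 of the 37 genes, with 40 windows, and the 250 bases before each start were searched on both strands. The windows shown are those of Srebf1, the gene of the segment, of Insig1, the sterol-responsive brake of the pathway, and of Hmgcs1 and Lss, a first and a later enzyme of the sterol branch. Srebf1 is on the minus strand and has 3 listed starts, numbered here by coordinate, at chr11:60210472-60210721, chr11:60220628-60220877 and chr11:60222582-60222831. The other windows are on the plus strand, at chr5:28071162-28071411 for Insig1, chr13:119690101-119690350 for Hmgcs1 and chr10:76531355-76531604 for Lss. Each is printed 5′ to 3′ along its gene and ends at the base before the start, and capitals mark CCAAT or its complement ATTGG, the box bound by NF-Y, a known partner of SREBP factors, and TCACNCCAC, the core of the sterol regulatory element.
Srebf1 start 1: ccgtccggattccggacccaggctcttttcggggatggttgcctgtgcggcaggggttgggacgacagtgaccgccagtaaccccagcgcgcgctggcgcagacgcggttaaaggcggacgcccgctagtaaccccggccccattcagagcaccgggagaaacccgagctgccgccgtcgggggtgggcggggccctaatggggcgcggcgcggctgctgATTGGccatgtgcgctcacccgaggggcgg
Srebf1 start 2: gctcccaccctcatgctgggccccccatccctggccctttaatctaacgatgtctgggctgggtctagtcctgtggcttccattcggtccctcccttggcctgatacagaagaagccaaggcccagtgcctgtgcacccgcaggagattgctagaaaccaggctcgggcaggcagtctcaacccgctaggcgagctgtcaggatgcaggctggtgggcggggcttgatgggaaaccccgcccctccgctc
Srebf1 start 3: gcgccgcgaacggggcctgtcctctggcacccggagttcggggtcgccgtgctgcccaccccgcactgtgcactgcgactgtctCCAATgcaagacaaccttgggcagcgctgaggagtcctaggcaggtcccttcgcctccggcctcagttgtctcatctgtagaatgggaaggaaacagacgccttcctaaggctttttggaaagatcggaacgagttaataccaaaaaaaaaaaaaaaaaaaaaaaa
Insig1: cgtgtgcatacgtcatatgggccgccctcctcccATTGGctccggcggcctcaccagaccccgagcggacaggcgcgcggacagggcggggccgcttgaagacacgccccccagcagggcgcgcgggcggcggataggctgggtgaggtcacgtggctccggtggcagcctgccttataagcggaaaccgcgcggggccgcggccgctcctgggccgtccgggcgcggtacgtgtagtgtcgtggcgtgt
Hmgcs1: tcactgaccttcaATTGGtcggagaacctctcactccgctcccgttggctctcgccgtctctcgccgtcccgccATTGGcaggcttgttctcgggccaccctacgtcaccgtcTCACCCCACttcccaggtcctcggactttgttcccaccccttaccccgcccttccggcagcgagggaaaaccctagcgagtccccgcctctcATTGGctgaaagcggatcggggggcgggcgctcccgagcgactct
Lss: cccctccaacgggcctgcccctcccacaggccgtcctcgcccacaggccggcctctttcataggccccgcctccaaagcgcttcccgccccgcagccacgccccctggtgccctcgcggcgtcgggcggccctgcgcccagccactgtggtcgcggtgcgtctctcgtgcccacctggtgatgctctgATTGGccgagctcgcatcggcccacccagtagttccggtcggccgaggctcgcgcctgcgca

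The CCAAT box was found in at least 1 window of 22 of the 30 genes, against 37.5% of the 27025 genes with a window in the table. By role it was in 11 of 11 sterol genes, 7 of 12 fatty acid genes and 4 of 7 regulators, the last being Srebf1, Srebf2, Insig1 and Insig2. In Hmgcs1 it occurred at 3 places, 237, 176 and 45 bases before the start. TCACNCCAC was found in 1 of the 30 genes, Hmgcs1, 137 bases before the start on the plus strand, and in 1.22% of all genes. The palindromic E-box CACGTG, which SREBP-1 can also bind, was found in 5 genes, Dhcr7, Elovl5, Insig1, Sc5d and Scap, against 6.86% of all genes, and the GC box GGGCGG in 21 of the 30, against 35.4%. In the windows printed here no match of 1 motif overlapped a match of another. These are matches of letters in one short window per start and not measured binding, and genes without a match may hold other forms of the element or hold it elsewhere.

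Srebf1 had the smallest unadjusted p of the members. Its log2 values were 7.87, 7.66 and 7.88 in duplication replicates 1, 2 and 3 and 7.22, 7.16 and 7.14 in wild-type replicates 1, 2 and 3. All 3 duplication mice were above all 3 wild-type mice, and the gap between the groups was wider than the range within either. The means were 7.80 ± 0.12 (SD, n = 3) and 7.17 ± 0.04 (SD, n = 3), a log2 fold change of 0.63 (SE 0.09, 95% interval 0.42 to 0.84), or 1.55-fold. That interval holds 0.58, the log2 of the copy ratio of 1.5. Limma gave an unadjusted p of 0.000204, the second smallest of 18193 genes, but an adjusted p of 0.994 over all 45037 probe sets, so Srebf1 did not pass the test. Over the fits with a mouse left out or another scaling the adjusted p was never below 0.56, the value without duplication replicate 2. With 20 ways to label the 6 mice, an exact two-sided permutation test of Srebf1 gave p = 0.1, which is the smallest that 3 mice against 3 allow.

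The difference of Srebf1 kept its direction whichever duplication mouse was left out. It was 0.60 without duplication replicate 1, 0.70 without replicate 2, 0.59 without replicate 3, and 0.49 for duplication replicate 2 alone. Among the 20 genes of the segment whose mean log2 value was at least 6, Srebf1 ranked 4 by log2 fold change, and the other 19 had a median of 0.46. Srebf1 is measured by 1 probe set, whose name ends in _a_at, the form used for probes shared by alternative transcripts of a gene. The transcripts that begin at its 3 listed starts were therefore not separated.

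**Figure D1:**
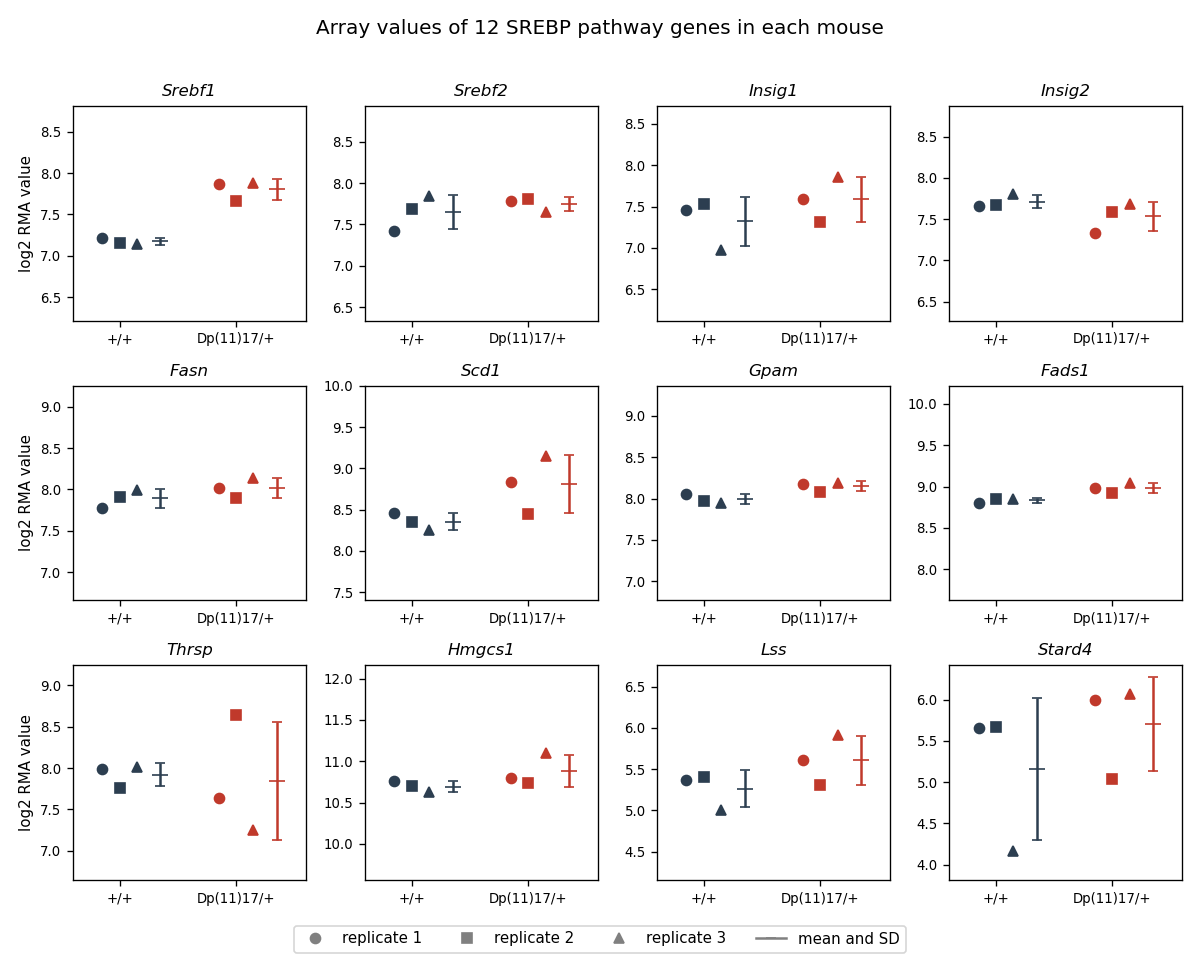
Log2 RMA values of 12 of the 37 genes in each mouse, with wild-type (+/+) mice in dark blue and duplication (Dp(11)17/+) mice in red, the replicate by symbol, and bars for the mean and SD of 3 mice. All panels span the same number of log2 units, so distances can be compared between genes: Srebf1, Gpam and Fads1 show groups that do not overlap, by far the widest gap being that of Srebf1, while in Insig1, Scd1, Lss and Stard4 duplication replicate 2 sits among or below the wild-type mice.

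The other 6 regulators showed no such difference, with 2 of 6 higher in the duplication mice, a median log2 fold change of -0.05 and 0 past the test. Srebf2, the paralog of Srebf1 on chromosome 15, had log2 values of 7.78, 7.80 and 7.65 in duplication replicates 1, 2 and 3 and 7.43, 7.68 and 7.84 in wild-type replicates 1, 2 and 3. The groups overlapped, and its log2 fold change was 0.10 (SE 0.12, 95% interval -0.19 to 0.38). Scap, the escort, was at 8.24, 8.23 and 8.18 against 8.18, 8.20 and 8.32, a difference of -0.02 (95% interval -0.20 to 0.17). Mbtps1, the first of the proteases, was at 7.22, 7.51 and 7.45 against 7.46, 7.47 and 7.51, with a log2 fold change of -0.09 (95% interval -0.32 to 0.14). Mbtps2, the second protease, was at 7.08, 7.21 and 7.02 against 7.21, 7.17 and 7.19, with a log2 fold change of -0.08 (95% interval -0.28 to 0.11). The upper bounds of these 4 genes lie below the log2 of 1.5.

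The Insig genes, which encode the proteins that hold Scap back, lay on opposite sides of 0. Insig1, itself a well-known SREBP target, was at 7.60, 7.31 and 7.86 in duplication replicates 1, 2 and 3 and at 7.46, 7.53 and 6.97 in wild-type replicates 1, 2 and 3. Its groups overlapped, wild-type replicate 3 being low and duplication replicate 3 high, and the log2 fold change was 0.27 (SE 0.19, 95% interval -0.18 to 0.72; limma unadjusted p = 0.196). Without wild-type replicate 3 it was 0.10, and without duplication replicate 3 it was 0.14. Insig2 was at 7.34, 7.59 and 7.68 against 7.66, 7.67 and 7.80, a log2 fold change of -0.18 (95% interval -0.44 to 0.08). Its other probe sets gave -0.25, with every duplication mouse below every wild-type mouse (limma unadjusted p = 0.0461), and -0.28, with overlapping groups.

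Srebf1 was then set against Srebf2 within each mouse, a difference whose level has no meaning of its own across probe sets and of which the shift between groups was read. Srebf1 minus Srebf2 was 0.09, -0.14 and 0.23 in duplication replicates 1, 2 and 3 and -0.21, -0.52 and -0.70 in wild-type replicates 1, 2 and 3. The groups did not overlap, with means of 0.06 ± 0.19 and -0.48 ± 0.25 (SD, n = 3 each). They differed by 0.53, and the exact two-sided permutation test gave p = 0.1, again the smallest possible. Srebf1 minus a gene separated the groups in the same direction for 90.1% of all genes, so this outcome is not particular to Srebf2. Leaving out each mouse in turn gave differences from 0.42 to 0.67.

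Of the 36 genes other than Srebf1, 0 had a log2 fold change above that of Srebf1. Few genes of the series did: Srebf1 ranked 34 by log2 fold change among the 7104 that averaged at least 6. The count of 0 is therefore not particular to the members. For 30 of the 36, Srebf1 minus the gene separated the groups, with all duplication mice higher, against 90.1% of all genes, so the share of the members is near the background. The 6 exceptions were Insig1, Scd1, Thrsp, Lpin1, Lss and Stard4. The 95% interval lay below the log2 of 1.5 for 31 of the 36, against 91.6% of all genes. It did not for Insig1, Scd1, Thrsp, Lss and Stard4.

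**Figure D2:**
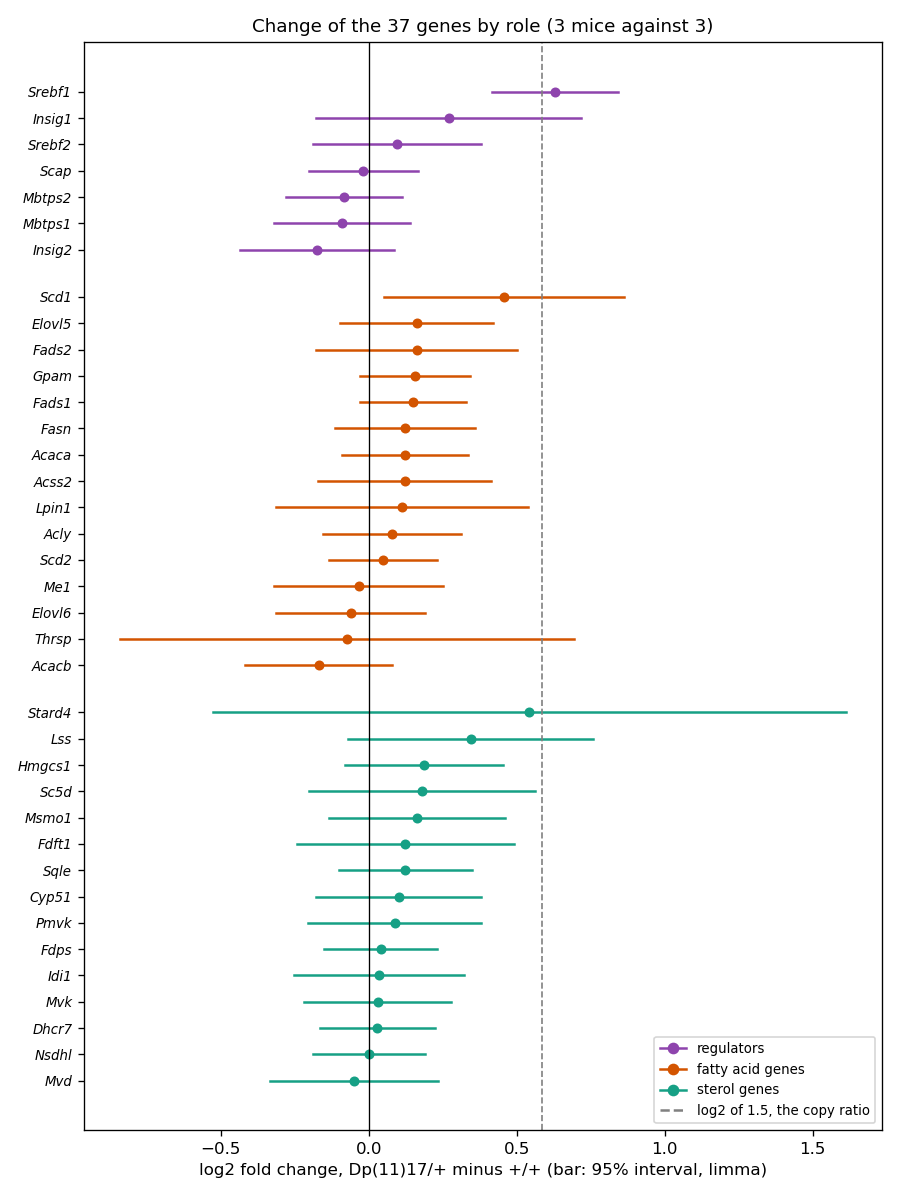
Log2 fold change of each of the 37 genes, Dp(11)17/+ minus +/+, with its 95% interval from limma as a bar, coloured by role and ordered by change within each role; the dashed line marks the log2 of the copy ratio of 1.5. The intervals of Srebf1 and Scd1 lie above 0, while those of the other 35 genes hold 0, and that of Stard4 is the widest, from -0.53 to 1.61.

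Among the 37 genes limma called 0 at an adjusted p under 0.05 over all probe sets, as it did among all 18193 genes (0%), and the plain equal-variance statistic also called 0. At an unadjusted p under 0.05, 2 members were higher, Srebf1 and Scd1, and 0 were lower, against 1.15% of all genes higher, 2.01% lower and 3.17% in either direction. Groups did not overlap for 3 members, Srebf1, Gpam and Fads1, all higher in the duplication mice, against 2.7% of all genes higher, 5.59% lower and 8.29% in either direction. Without duplication replicate 2, 5 members had an unadjusted p under 0.05 (8.15% of all genes) and 19 had groups that did not overlap (24.9% of all genes). Without wild-type replicate 1, 6 members did not overlap (21.1% of all genes).

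The 15 fatty acid genes had small differences that mostly pointed upward: 11 were higher and 4 lower in the duplication mice, and the median log2 fold change was 0.12. Limma called 0 of the 15. Over all genes 41.7% were higher, with a median of -0.02. The mean over the 15 genes minus the wild-type mean was 0.07, 0.06 and 0.13 in duplication replicates 1, 2 and 3 and between -0.02 and 0.02 in wild-type mice. These means lean on Thrsp, whose distance from its own wild-type mean was -0.28, 0.73 and -0.67 in duplication replicates 1, 2 and 3. Thrsp thus raised the mean of replicate 2 and lowered those of replicates 1 and 3. A mean without Thrsp was not taken, so these means do not show a rise in replicate 2 shared by the other genes. Counted gene by gene, 11 of 15 were above their wild-type mean in duplication replicate 1, 10 in replicate 2 and 13 in replicate 3. The shares of all genes were 42.2%, 45.1% and 43%. Astrocyte, oligodendrocyte precursor and endothelial marker means were above the wild-type range in each duplication mouse, by the values given above. The part of these markers in the result was not tested. For duplication replicate 2 alone, the median of the 15 genes was 0.09.

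Scd1, a stearoyl-CoA desaturase that makes monounsaturated fatty acids, was at 8.83, 8.45 and 9.15 in duplication replicates 1, 2 and 3 and at 8.46, 8.35 and 8.26 in wild-type replicates 1, 2 and 3. Duplication replicates 1 and 3 were above all wild-type mice, but replicate 2 fell within their range. The log2 fold change was 0.46 (SE 0.17, 95% interval 0.05 to 0.86), or 1.37-fold, with a limma unadjusted p of 0.0321 and an adjusted p of 0.994. It was 0.45 without duplication replicate 1, 0.29 without duplication replicate 3 and 0.10 with duplication replicate 2 alone. Its second probe set, at a mean of 3.23, gave 0.00. Scd2, the desaturase known for its high level in brain, was at 11.02, 10.96 and 11.07 against 10.93, 10.96 and 11.01, a log2 fold change of 0.05 (95% interval -0.13 to 0.23). A second Scd2 probe set of lower signal was at 8.68, 8.50 and 8.55 against 8.004, 8.38 and 8.27, without overlap, with a log2 fold change of 0.36 and a limma unadjusted p of 0.0179, so the probe sets of Scd2 differed.

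Gpam, the mitochondrial acyltransferase that begins glycerolipid synthesis, was at 8.18, 8.08 and 8.19 against 8.06, 7.97 and 7.95. The groups did not overlap, although the gap between the closest mice was small, and the log2 fold change was 0.16 (95% interval -0.03 to 0.34; limma unadjusted p = 0.0871). Fads1, the delta-5 desaturase of polyunsaturated fatty acid synthesis, was at 8.98, 8.92 and 9.04 against 8.80, 8.85 and 8.85, also without overlap. Its log2 fold change was 0.15 (95% interval -0.03 to 0.33; limma unadjusted p = 0.0889). Fads2, the delta-6 desaturase, was at 7.59, 7.36 and 7.25 against 6.97, 7.37 and 7.38, with overlapping groups and a log2 fold change of 0.16 (95% interval -0.18 to 0.50).

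The core enzymes of fatty acid synthesis had groups that overlapped. Fasn, the fatty acid synthase, was at 8.01, 7.89 and 8.14 in duplication replicates 1, 2 and 3 and at 7.77, 7.91 and 7.996 in wild-type replicates 1, 2 and 3, a log2 fold change of 0.12 (95% interval -0.11 to 0.36). Acaca, the acetyl-CoA carboxylase that makes malonyl-CoA for synthesis, was at 7.63, 7.39 and 7.57 against 7.40, 7.38 and 7.46, with a log2 fold change of 0.12 (95% interval -0.09 to 0.34). Acacb, the mitochondrial form of the carboxylase, had a low signal of 3.68 to 4.01 over the 6 mice and a log2 fold change of -0.17. The enzymes that supply acetyl-CoA and NADPH gave 0.08 for Acly, 0.12 for Acss2 and -0.03 for Me1, the malic enzyme. The elongases Elovl5 and Elovl6 gave 0.16 and -0.06. Probe sets with a mean of 6 or more disagreed in sign for Acly, Acss2 and Elovl6, where another probe set gave -0.11, -0.07 and 0.25.

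Thrsp and Lpin1 had the highest pooled SD within groups of the fatty acid genes. Thrsp, a lipogenic gene first known for its response to thyroid hormone, was at 7.64, 8.64 and 7.25 in duplication replicates 1, 2 and 3 and at 7.98, 7.76 and 8.01 in wild-type replicates 1, 2 and 3. Duplication replicate 2 was the highest and duplication replicate 3 the lowest of all 6 mice and the group difference was -0.07 (95% interval -0.84 to 0.69). Lpin1, a phosphatidate phosphatase, was at 5.74, 5.72 and 5.75 against 5.93, 5.74 and 5.20, the spread lying in the wild-type group. Its log2 fold change was 0.11 (95% interval -0.31 to 0.54).

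The 15 sterol genes had a median log2 fold change of 0.10, with 14 higher and 1 lower, Mvd, in the duplication mice, and limma called 0 of the 15. The direction was not shared by the 3 duplication mice. The mean over the 15 genes minus the wild-type mean was 0.18, -0.05 and 0.26 in duplication replicates 1, 2 and 3 and 0.05, 0.08 and -0.13 in wild-type replicates 1, 2 and 3, so duplication replicate 2 lay within the wild-type range. Counted gene by gene, 14 of 15 were above their wild-type mean in duplication replicate 1, 6 in replicate 2 and 12 in replicate 3. With duplication replicate 2 alone, the median over the 15 genes was -0.03. Striatal markers were high in the same replicates 1 and 3, and thalamic and oligodendrocyte markers in replicate 3, with CA1 and dentate markers low in both and high in replicate 2. Among the duplication mice, the sterol genes were highest in replicate 3, next in replicate 1 and lowest in replicate 2. Oligodendrocyte precursor, endothelial, striatal, and thalamus and habenula markers had the same order. Astrocyte and oligodendrocyte markers had other orders. In duplication replicates 1, 2 and 3 they lay at 0.19, 0.12 and 0.08 for astrocytes and -0.07, 0.17 and 0.56 for oligodendrocytes. The part of these markers in the result was not tested.

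Hmgcs1, which makes the HMG-CoA that feeds the mevalonate pathway, was at 10.80, 10.74 and 11.10 in duplication replicates 1, 2 and 3 and at 10.76, 10.69 and 10.63 in wild-type replicates 1, 2 and 3. Duplication replicate 3 was the highest, replicate 1 just above the wild-type range and replicate 2 within it, and the log2 fold change was 0.19 (95% interval -0.08 to 0.45). Without duplication replicate 3 it was 0.077. Its 4 other probe sets gave 0.15, 0.12, 0.15 and 0.19, of which 3 had groups that did not overlap, the last of them with a mean of only 2.86, near the bottom of the scale. In the brighter of these 3 the closest mice were nearly level. Duplication replicate 2 was at 10.2774 against 10.2770 in wild-type replicate 3, and at 8.428 against 8.426 in wild-type replicate 2. The next steps of the mevalonate pathway gave log2 fold changes of 0.03 for Mvk, 0.09 for Pmvk, -0.05 for Mvd, 0.03 for Idi1 and 0.04 for Fdps. Mvd, the decarboxylase, was lowest in duplication replicate 2, at 5.74 against 6.18 and 6.03 in the other duplication mice and 6.00 to 6.06 in wild-type mice. Dimmer probe sets had the opposite sign for Mvd (0.03, mean 5.61), Mvk (-0.11, mean 5.62) and Fdps (-0.04, mean 2.54). The dimmer probe set of Idi1 (0.20, mean 5.85) had the same sign.

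The enzymes from squalene onward had log2 fold changes from 0.00 to 0.34. Fdft1, squalene synthase, gave 0.12 (95% interval -0.24 to 0.49), and Sqle, which adds the oxygen to squalene, gave 0.12 (95% interval -0.10 to 0.35). Lss, which closes the sterol rings, was at 5.61, 5.31 and 5.91 against 5.37, 5.41 and 5.01, with duplication replicates 1 and 3 above all wild-type mice and replicate 2 among them. Its log2 fold change was 0.34 (95% interval -0.07 to 0.76; limma unadjusted p = 0.0894), and 0.05 with duplication replicate 2 alone. Msmo1, a sterol demethylase, also had duplication replicates 1 and 3 above all wild-type mice but replicate 2 below them, at 9.05, 8.66 and 9.06 against 8.72, 8.85 and 8.71, with a log2 fold change of 0.16 (95% interval -0.14 to 0.46). Cyp51, the lanosterol demethylase, gave 0.10, Nsdhl 0.00, Sc5d 0.18 and Dhcr7, a last step of cholesterol synthesis, 0.03. A second Sc5d probe set gave -0.01. The values of Cyp51 and Sc5d rested on 2 mice, being 0.021 and 0.053 without duplication replicate 3 and 0.0043 and 0.038 without wild-type replicate 3. Nsdhl, like Mbtps2, lies on the X chromosome, and its values were 7.26, 7.12 and 7.19 against 7.25, 7.15 and 7.18, with duplication replicate 1, the mouse with high Xist, the highest by a small margin.

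Stard4, a carrier of cholesterol between membranes, had a log2 fold change of 0.54 (SE 0.45, 95% interval -0.53 to 1.61), close to that of Srebf1 but with a pooled SD of 0.73 within groups. Its values were 6.00, 5.04 and 6.07 in duplication replicates 1, 2 and 3 and 5.65, 5.66 and 4.17 in wild-type replicates 1, 2 and 3. Wild-type replicate 3 was far below the rest, and without it the log2 fold change was 0.05. Other probe sets of the gene gave 0.24 and 0.13. Without Stard4, 13 of 14 sterol genes were higher, with a median of 0.09.

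**Figure D3:**
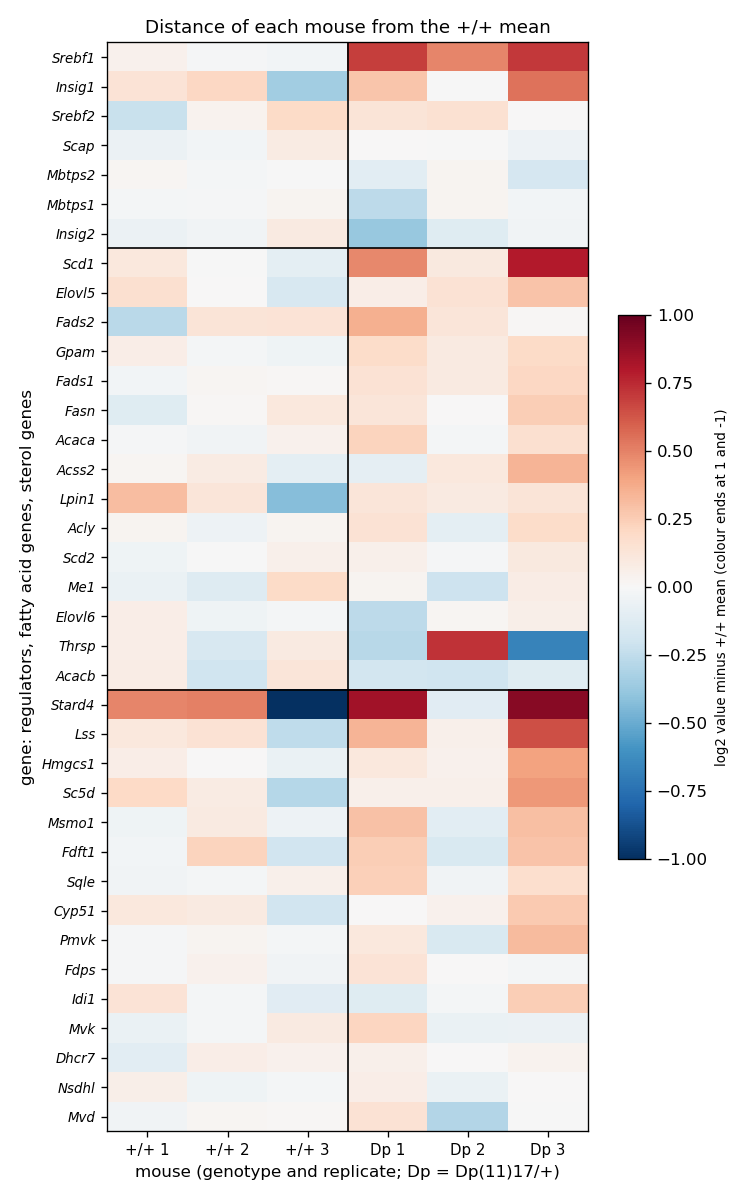
Log2 value of each of the 37 genes in each mouse minus the mean of the 3 wild-type mice, with red for higher and blue for lower; rows run by role from regulators through fatty acid genes to sterol genes, and columns are the 6 mice. The row of Srebf1 is red in all 3 duplication mice, whereas most sterol genes are red in duplication replicates 1 and 3 and pale or blue in replicate 2, where 6 of 15 lie above the wild-type mean.

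Over the 36 genes other than Srebf1, 27 were higher in the duplication mice, with a median log2 fold change of 0.10, against 41.7% of all genes with a median of -0.02, and 40.9% with a median of -0.03 for genes of mean log2 value 6 or more. In single mice, 28 of the 36 were above the wild-type mean in duplication replicate 1, 19 in replicate 2 and 27 in replicate 3, against 42.2%, 45.1% and 43% of all genes. For duplication replicate 2 alone the median of the 36 was 0.00. In 22 of the 36 genes both duplication replicates 1 and 3 were above replicate 2, among them 11 sterol genes, 10 fatty acid genes and 1 regulator. The same held for 33.9% of all genes and 39.9% of those with a mean of 6 or more.

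Single mice often marked the ends of the range. Duplication replicate 3 had the highest value of the 6 mice in 19 of the 37 genes, or 51.4%, against 18.4% of all genes, and in 9 of 15 sterol and 8 of 15 fatty acid genes. Wild-type replicate 3 had the lowest value in 14 of 37, or 37.8%, against 15.1% of all genes, 7 of them sterol genes. The pooled SD within groups ran from 0.05 for Fads1 to 0.73 for Stard4. For the 32 members with a mean of 6 or more its median was 0.14, as it was over all genes of that signal. The other 5 members, Acacb, Lpin1, Lss, Mvk and Stard4, had lower means, and their differences are less well measured.

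**Figure D4:**
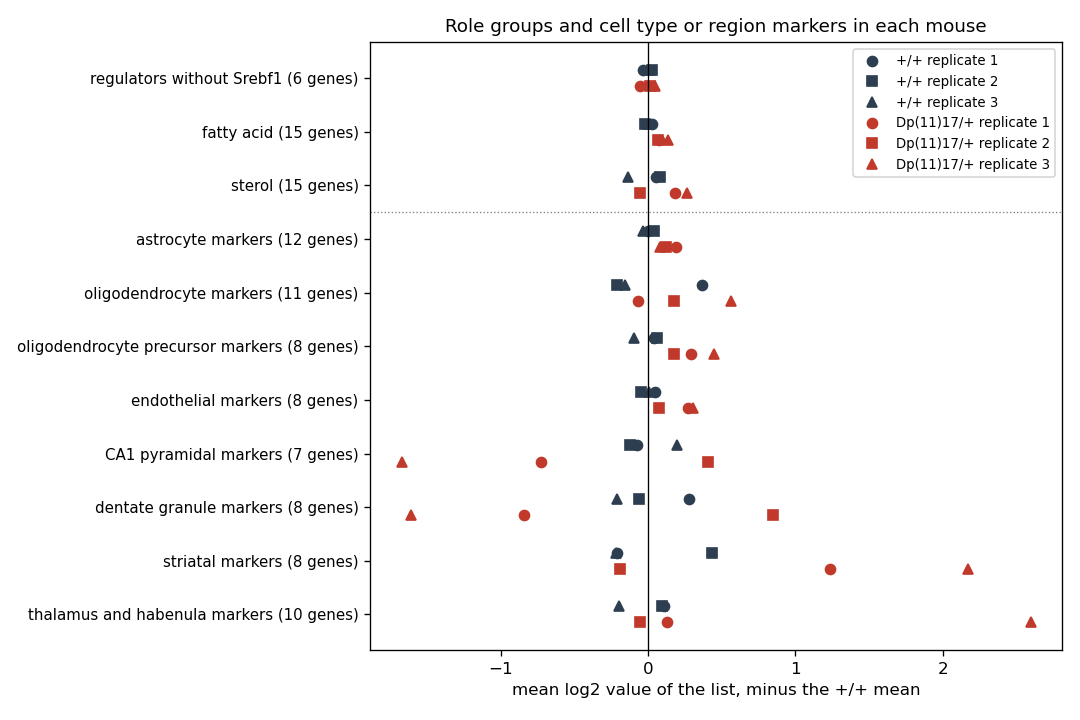
Mean log2 value of each gene list in each mouse minus the wild-type mean, for the role groups of the members above the dotted line and the lists of cell type and region markers below it; wild-type mice are dark blue, duplication mice red, and symbols give the replicate. The role groups stay within 0.26 of the wild-type mean, with duplication replicates 1 and 3 above replicate 2 in the sterol row, while thalamus and habenula markers reach 2.60 in duplication replicate 3 and striatal markers 2.17.

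Other genes of the same pathways, 59 in 4 lists chosen by function, served as a wider view, and 53 of them were measured. Of these, 28 were higher and 25 lower, the median log2 fold change was 0.03, and limma called 0. At an unadjusted p under 0.05 there was 1 of the 53, against 3.17% of all genes in either direction. This was Aacs, an enzyme that turns acetoacetate into acetoacetyl-CoA for lipid synthesis. Its values were 6.74, 6.58 and 6.80 in duplication replicates 1, 2 and 3 and 6.83, 7.005 and 6.98 in wild-type replicates 1, 2 and 3. Every duplication mouse was below every wild-type mouse, as for 5.59% of all genes. The log2 fold change was -0.23 (SE 0.09, limma unadjusted p = 0.0430), opposite in sign to most members.

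By list, 3 of 5 further genes of sterol synthesis were higher (median 0.03), with 0.18 for Lbr, a sterol reductase of the nuclear membrane, 0.11 for Tm7sf2, -0.10 for Ebp and -0.03 for Hsd17b7. Further genes of fatty acid and glycerolipid synthesis were higher in 12 of 20 (median 0.05), with 0.25 for Hacd1, 0.16 for the acyl-CoA synthetase gene Acsl3 and -0.17 for the acyltransferase gene Agpat2. Agpat2 had a low signal, from 3.37 to 3.75 over the 6 mice. Genes that regulate or partner SREBP were higher in 5 of 14 (median -0.02), with 0.18 for the deacetylase gene Sirt1, -0.21 for Pgrmc1 and -0.09 for Erlin2. Faf2, which helps to extract Insig proteins for degradation, was at 6.70, 6.71 and 6.62 against 6.80, 6.83 and 6.86. All its duplication mice were below all wild-type mice, as for 5.59% of all genes. The log2 fold change of Faf2 was -0.15 (limma unadjusted p = 0.0766). Genes of sterol transport and turnover were higher in 8 of 14 (median 0.03), with 0.27 for the lipoprotein receptor gene Vldlr, 0.24 for Cyp46a1, the neuronal enzyme that turns cholesterol into its exported form, 0.22 for Npc1 and 0.17 for Npc2.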

How the data were processed

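Series values were 1 log2 value per probe set and array, made by the authors with RMA per the submitters' processing notes, which corrects background, applies quantile normalization and summarises probes. Its version and the genome build are not given in the sources used here. Values were used as deposited, from 2.14 to 13.09 with array medians of 3.74 to 3.79. RMA is known to compress fold changes. Per the labels, each sample is the hippocampus of 1 individual, but the extract protocol names other organs and the text on labelling mentions a pool, so p-values measure only the spread between these samples. Groups came from the genotype in the source names. With 3 arrays a group, their number limits the precision.

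After 64 control probe sets were left out, 45037 were tested with limma 3.58.1 in R 4.3.3 (lmFit and eBayes, two-sided, 7.11 degrees of freedom, Benjamini-Hochberg over all of them, threshold 0.05). Of these probe sets 34945 had 1 gene symbol, 932 several and 9160 none. Of the 34945, 34741 were found by Entrez identifier in a RefSeq gene table of GRCm38.p6. That table gave chromosomes, gene order and updated gene symbols, by which probe sets were grouped into genes. The probe set with the highest mean stood for its gene. Counts, permutation tests and promoter searches used Python 3.11.15 with scipy 1.17.1. Promoter sequences are RefSeq's, on GRCm38.p6.

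The text names every member, up to 4 genes of each pathway list by smallest unadjusted p, and the defining markers of the cell type lists. Of 77 marker genes 72 were measured. Adora2a, the defining striatal marker, had no probe set of its own symbol alone and was not used. The members, role groups, lists and tests were chosen with earlier results of these data known. Alternatives were quantile normalization again, median centring, cyclic loess, the mean of all probe sets of a gene, other limma settings, filters on dim probe sets, each mouse left out, and duplication replicate 2 as the only duplication mouse.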

Additional observations from a re-analysis of the deposited data

How the results depend on the processing

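Of the results for the 37 genes, the count past the test was 0 in every limma setting, scaling, filter and leave-one-out fit. Scaling the arrays again turned the sign of 2 genes: Nsdhl, at -0.0031 by quantile normalization and -0.0079 by median centring, and Scap, at 0.0071 by cyclic loess. The mean of all probe sets turned Acaca to -0.0011, Elovl6 to 0.066, Fdft1 to -0.042 and Mvk to -0.039; the cause was not tested. For duplication replicate 2 alone, Srebf1 was at 0.49, 6 sterol genes were higher, and the medians were 0.00050 over the 36 other genes, 0.011 for regulators and 0.089 for fatty acid genes. Leaving out a mouse moved every gene except Srebf1, Gpam and Fads1 by over 1.5 times in at least 1 fit. It kept Srebf1 between 0.59 and 0.70 and Srebf1 minus Srebf2 between 0.42 and 0.67. It gave 1 to 5 members at an unadjusted p under 0.05 (2.15% to 8.15% of all genes) and 3 to 19 without overlap (15.5% to 24.9% of all genes). A count of 3 or 4 of 37 is below that background, while the 19 of 37 without duplication replicate 2 is above it. Of the 36 other genes, 24 to 29 were higher (regulators 1 to 3 of 6, fatty acid 11 to 13 of 15, sterol 11 to 15 of 15). Medians ran from 0.057 to 0.13 over the 36 genes, -0.081 to -0.015 for regulators, 0.071 to 0.16 for fatty acid genes and 0.046 to 0.20 for sterol genes. In these fits 13 genes changed sign at least once: Elovl6 (-0.12 to 0.041), Thrsp (-0.47 to 0.22), Fdps (-0.0063 to 0.070), Mvk (-0.062 to 0.079), Nsdhl (-0.034 to 0.035), Me1 (-0.097 to 0.062), Mvd (-0.15 to 0.072), Idi1 (-0.073 to 0.11), Pmvk (-0.024 to 0.21), Srebf2 (-0.016 to 0.19), Dhcr7 (-0.026 to 0.062), Scap (-0.046 to 0.025) and Lpin1 (-0.10 to 0.27). Signal over background limits the 5 members with a mean log2 value under 6. No paired analysis was possible because the replicate numbers follow accession order and pair no mice.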
